A study of Mus musculus with 36 samples.

Results

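Mutations in a small set of genes cause inherited cystic kidney disease, and 9 of them were followed here in neonatal mouse kidneys with a collecting duct deletion of Pkd1 or Pkd2: Pkd1, Pkd2, Pkhd1, Ganab, Dnajb11, Dzip1l, Glis2, Glis3 and Bicc1. They were taken by symbol from the read count table, in which 20458 genes have a symbol, and each was represented by its RefSeq transcript with the highest mean count. The table holds whole-kidney RNA-seq of 36 libraries in 12 groups of 3. All mice had the C57BL/6 background, and both models were sampled on 3 postnatal days, P1, P3 and P7. KO kidneys of the Pkd1 model were Pkd1 f/f:HoxB7-Cre, against Pkd1 f/f as WT. KO kidneys of the Pkd2 model were Pkd2 f/f:HoxB7-Cre, against WT kidneys that were Pkd2 f/f. The WT mice were age-matched littermates, so they carried the floxed alleles without the Cre transgene. HoxB7-Cre acts in the collecting duct, and cells that it does not reach keep the floxed gene. The libraries held 7179152 to 15850818 counts, with a median of 13143336.

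Polycystin-1, encoded by Pkd1, and polycystin-2, the cation channel encoded by Pkd2, form a complex on the primary cilium of tubule cells, and loss of either causes autosomal dominant polycystic kidney disease. Fibrocystin, encoded by Pkhd1, is a ciliary and basal body protein lost in the recessive disease, and Dzip1l, a protein of the ciliary transition zone, is mutated in a rarer recessive form. Ganab, a glucosidase II subunit, and Dnajb11, a co-chaperone of the endoplasmic reticulum, act in the folding and maturation of membrane proteins such as polycystin-1. Glis2 and Glis3 are zinc finger transcription factors, and Bicc1 is an RNA-binding protein whose loss gives cystic kidneys in mice.

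In mm10 the genes lie at chr17:24548689-24596514 (Pkd1), chr5:104453982-104505819 (Pkd2), chr1:20057779-20618082 (Pkhd1), chr19:8898057-8916742 (Ganab), chr16:22857845-22879634 (Dnajb11), chr9:99629501-99670075 (Dzip1l), chr16:4594320-4625141 (Glis2), chr19:28258851-28680265 (Glis3) and chr10:70922830-71159690 (Bicc1). Pkhd1, Glis3 and Bicc1 are on the minus strand and the others on the plus strand. Exons of Pkd1 share 693 bases with Tsc2 on the opposite strand, 4.9% of its exonic length, and antisense transcripts overlap 1.6% of the exonic bases of Pkhd1 and 6.4% of those of Bicc1, so reads there could come from either gene.

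Promoter windows of RefSeq on GRCm38.p6, from 250 bases before to 50 bases after the start site, were found for 7 of the 9 genes, not for Glis2 or Bicc1. They were searched on both strands for motifs of the endoplasmic reticulum stress response. None of the 7 held an endoplasmic reticulum stress element (CCAAT, 9 free bases, CCACG), which 0.119% of 32851 windows of this length hold, or an unfolded protein response element (TGACGTG), which 2.01% hold. This says only that these letters are not in the windows.

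Levels were compared between genes as CPM, counts scaled to the library size, per kilobase of transcript (CPM per kb) over the 18 WT libraries. Glis2 had the highest median, 83.6 CPM per kb, followed by Pkd2 at 51.1 and Bicc1 at 37.9. Dzip1l had 24.2, Pkd1 17.97, Dnajb11 16.5 and Pkhd1 10.5. From one gene to the next in this order the ranges over WT libraries overlapped down to Pkhd1. Ganab, at 0.681, and Glis3, at 0.0344, lay below. These 2 levels and that of Dnajb11 cannot be set against the others, because the table gives few reads to genes that it lists under several RefSeq transcripts. The median count of the best transcript was 1.08 for the 4726 genes with several transcripts and 156.75 for the 15732 genes with 1. Ganab has 2 listed transcripts, Dnajb11 has 3 and Glis3 has 2. Glis3 counts ran from 0 to 13 per library and Ganab counts from 14 to 50, and counting error alone is large at these depths.

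**Figure D1:**
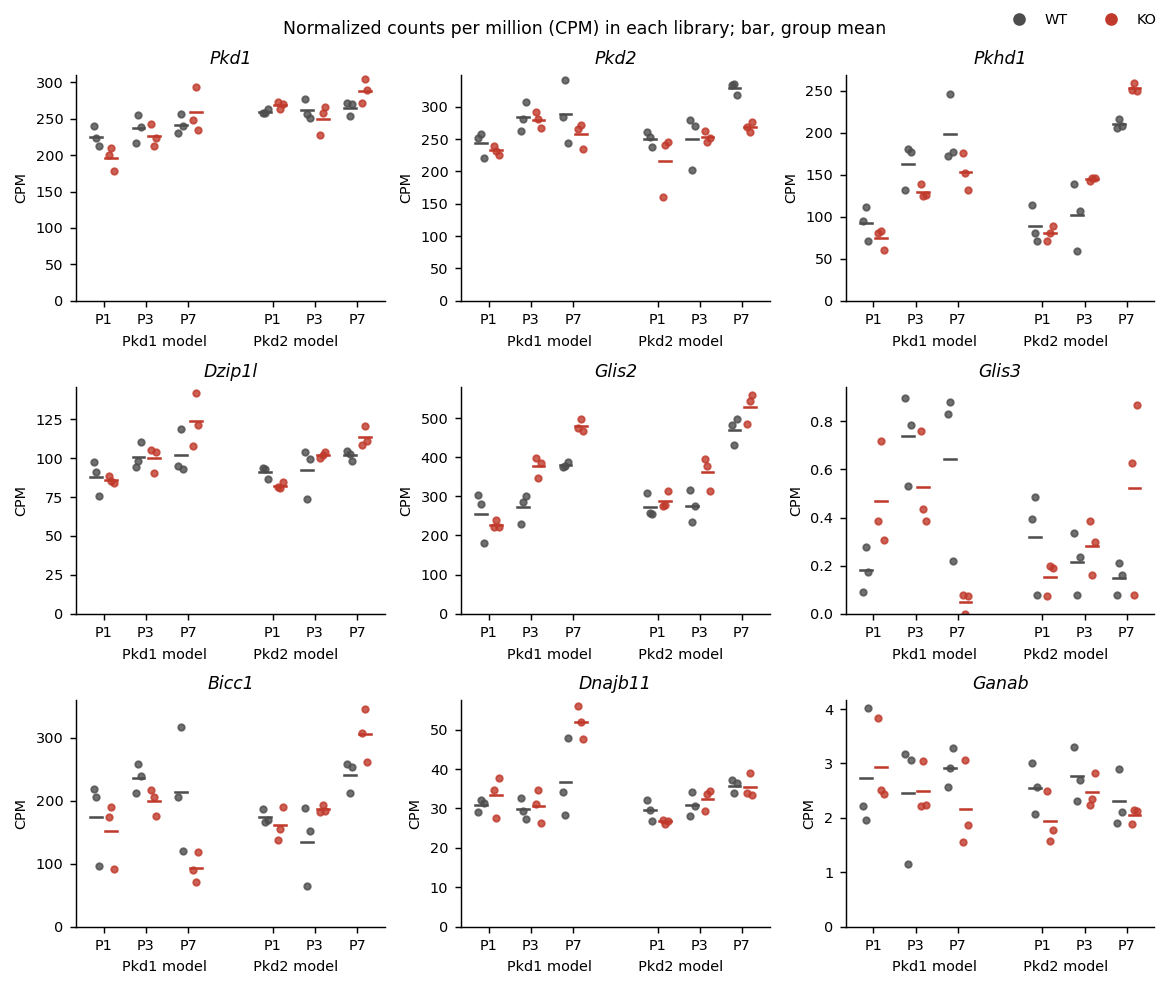
Normalized CPM (vertical axes, starting at 0) of each gene in each library, by postnatal day and model (horizontal axes); dots are libraries, grey for WT and red for KO, and bars are group means of 3. Pkhd1 and Glis2 rise with age, while Bicc1 at P7 stands at 205, 317 and 121 CPM in WT and 89.6, 71.2 and 118 CPM in KO kidneys of the Pkd1 model and at 262 to 345 CPM in KO kidneys of the Pkd2 model.

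Several libraries stood apart before any comparison. In each library the median deviation of transcripts of at least 3950 bases was set against that of transcripts of at most 2273 bases, over 8862 transcripts. This length contrast, in log2 units, was -0.439, -0.33 and -0.363 in the 3 P7 KO libraries of the Pkd1 model, and -0.015, 0.248 and -0.339 in their WT libraries, so WT replicate 3 resembled the KO libraries. At P7 in the Pkd2 model it was -0.097, 0.027 and -0.085 in KO and 0.011, -0.027 and 0.0 in WT kidneys. Transcripts of the Y-linked genes Ddx3y, Eif2s3y, Kdm5d and Uty were present in 3 of 3 P7 KO libraries and 0 of 3 WT libraries of the Pkd1 model, where sex and genotype cannot be told apart, and in 3 and 2 of 3 in the Pkd2 model. At P1 they were present in 2 of 3 WT and 0 of 3 KO libraries of the Pkd1 model. In the Pkd2 model they were present in 1 of 3 WT and 0 of 3 KO libraries at P1, and likewise at P3. Both Pkd1 model groups had them in 3 of 3 libraries at P3. At P7 all 6 proximal tubule markers and all 5 intercalated cell markers were lower in KO kidneys of both models. Principal cell markers of the collecting duct summed to 1003 to 1179 CPM in WT and 514 to 652 CPM in KO kidneys of the Pkd1 model at P7. In the Pkd2 model they summed to 929 to 1383 CPM and 578 to 677 CPM, while 4 of the 9, Aqp4, Avpr2, Scnn1b and Fxyd4, had under 10 counts in every library. Of the 5 tested, 3 were called lower in each model, and Gata3 was called higher in the Pkd1 model. A second list, of ureteric epithelium and collecting duct, summed higher in KO kidneys. The sums were 1800 to 1900 CPM in WT and 2242 to 2574 CPM in KO kidneys of the Pkd1 model. In the other model they were 1970 to 2010 CPM and 2208 to 2384 CPM. Of the 6 genes on that list, 3 and 2 were called higher and 0 lower. In each model 3 of their log2 fold changes lay above 0 and 3 below, so the list did not rise as a whole. Counts under 10 in every library were also found for Umod, Slc12a3, Pecam1, Pdgfrb and the globin genes, which define other cells of the kidney, so their absence from the table cannot be read as absence of the cells. The summed proximal tubule level was 3902 to 5021 CPM in WT and 1457 to 2533 CPM in KO kidneys of the Pkd1 model. The same sum was 4028 to 5287 CPM in WT and 2894 to 3156 CPM in KO kidneys of the Pkd2 model. Macrophage markers summed to 142 to 169 CPM in WT against 206 to 223 CPM in KO kidneys of the Pkd1 model and 150 to 161 against 210 to 257 CPM in the Pkd2 model. In whole tissue, fewer cells of a type and less RNA per cell cannot be told apart, and the part of cell composition, sex or transcript length in the results below was not tested unless a value is given.

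The targeted genes were examined first. The floxed Pkd1 exons 2 to 5 make up 6.96% of its transcript, and Pkd2 exons 3 to 4 make up 7.38%, so counts over the whole transcript check the deletion only in part. Pkd1 in the Pkd1 model stood at 239, 223 and 213 CPM in WT and 200, 209 and 178 CPM in KO kidneys at P1, which did not overlap. At P3 the values were 217, 255 and 239 CPM in WT and 242, 213 and 223 CPM in KO kidneys. At P7 they were 230, 256 and 240 CPM in WT and 248, 294 and 234 CPM in KO kidneys, and the groups overlapped on both days. From P1 to P7 in order, the log2 fold changes of Pkd1 were -0.20 ± 0.09 (SE), -0.07 ± 0.08 and 0.10 ± 0.12. None was called. A call, here and in every comparison, is an adjusted p under 0.05 by the quasi-likelihood test of edgeR, with the Benjamini-Hochberg method applied to all transcripts tested.

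Pkd2 fell at P7 in the Pkd2 model. WT kidneys had 334, 335 and 318 CPM and KO kidneys 269, 261 and 276 CPM, with no overlap. The log2 fold change was -0.29 ± 0.05, a change of -18.3%, with an edgeR adjusted p of 0.0122. At P1 the values were 260, 253 and 239 CPM in WT and 161, 241 and 246 CPM in KO kidneys, and at P3 280, 202 and 271 CPM in WT and 263, 246 and 252 CPM in KO kidneys, without a call on either day. Leaving out one library at a time kept the P7 call in 4 of 6 fits, and it was lost without WT replicate 1 (edgeR adjusted p = 0.0589) or KO replicate 2 (0.0507), at log2 fold changes of -0.28 and -0.27. When all 18 libraries of the model shared one estimate of the spread it was lost too (edgeR adjusted p = 0.157).

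The other polycystin gene was not called in either model. Pkd2 in the Pkd1 model at P7 had 284, 341 and 244 CPM in WT and 266, 272 and 235 CPM in KO kidneys, with a log2 fold change of -0.17 ± 0.14. Corrected for the GC content and length of each transcript, that value became 0.16, so no direction can be given. Pkd1 in the Pkd2 model had 272, 254 and 270 CPM in WT and 271, 304 and 290 CPM in KO kidneys, a log2 fold change of 0.12 ± 0.06. The groups overlapped in both cases.

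At P1 and P3 none of the 9 genes was called in either model. Same-numbered libraries of the Pkd1 model at P1 were taken as pairs because their counts deviated together, which no label states. Replicate 3 had the lowest length contrast in both groups, -0.085 in WT and -0.156 in KO kidneys. A fit blocked on those numbers called 5 transcripts, none of them a member. KO kidneys were lower in 3 of 3 pairs for Pkd1 (-0.20 ± 0.06, edgeR adjusted p = 0.640), Pkhd1 (-0.30 ± 0.07, 0.380) and Bicc1 (-0.18 ± 0.07, 0.787), and in fewer for the other members. The pairs were drawn from the same counts, so this is a description only. At P1 the calls over all transcripts were 0% of 12527 in the Pkd1 model by edgeR, with 161 at an unadjusted p under 0.05 and 2 calls by DESeq2, and 0% of 12633 in the Pkd2 model, with 708 and 33. At P3 they were 0.00798% in the Pkd1 model, 1 transcript, with 1767 at an unadjusted p under 0.05 and 248 calls by DESeq2, and 0% in the Pkd2 model, with 563 and 38. Of the members tested, 3 of 9 in the Pkd1 model at P3 had an unadjusted p under 0.05, namely Glis2, Pkhd1 and Bicc1. The median log2 fold change of those tested was -0.068 at P1 and -0.021 at P3 in the Pkd1 model, beside -0.001 and 0.002 over all transcripts. For the Pkd2 model these medians were -0.141 and 0.105, beside 0.002 and -0.017.

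Glis2 at P3 lay higher in KO kidneys of both models without a call by edgeR. It had 228, 286 and 301 CPM in WT and 397, 348 and 386 CPM in KO kidneys of the Pkd1 model, which did not overlap, and the log2 fold change was 0.47 ± 0.11 (edgeR adjusted p = 0.170). DESeq2 called 1 of the 9 genes on this day, Glis2. The Pkd2 model had 316, 235 and 274 CPM in WT and 397, 378 and 313 CPM in KO kidneys, where 1 KO library lay below the highest WT library, and the log2 fold change was 0.40 ± 0.13 (edgeR adjusted p = 0.931). Pkhd1 at P3 in the Pkd2 model had 139, 59.1 and 107 CPM in WT and 142, 147 and 146 CPM in KO kidneys (log2 fold change 0.51 ± 0.27), and the wide spread lay in the WT group.

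At P7 the calls reached 13.7% of transcripts in the Pkd1 model, 1721 of 12527, and 13.9% in the Pkd2 model, 1753 of 12633. Among the disease genes 2 of 9 tested were called in the Pkd1 model, Bicc1 and Glis3, both lower in KO kidneys, and 2 of 8 tested in the Pkd2 model, Pkd2 lower and Pkhd1 higher. Glis3 passed the low-count filter in the Pkd1 model and not in the Pkd2 model. No member was called in both models, which says little with 2 calls in each. The share of all transcripts called in both models was not counted. Both shares, read against 13.7% and 13.9%, rest on 2 genes each. The median log2 fold change of the members tested was -0.168 and 0.138, against -0.006 and 0.002 over all transcripts.

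**Figure D2:**
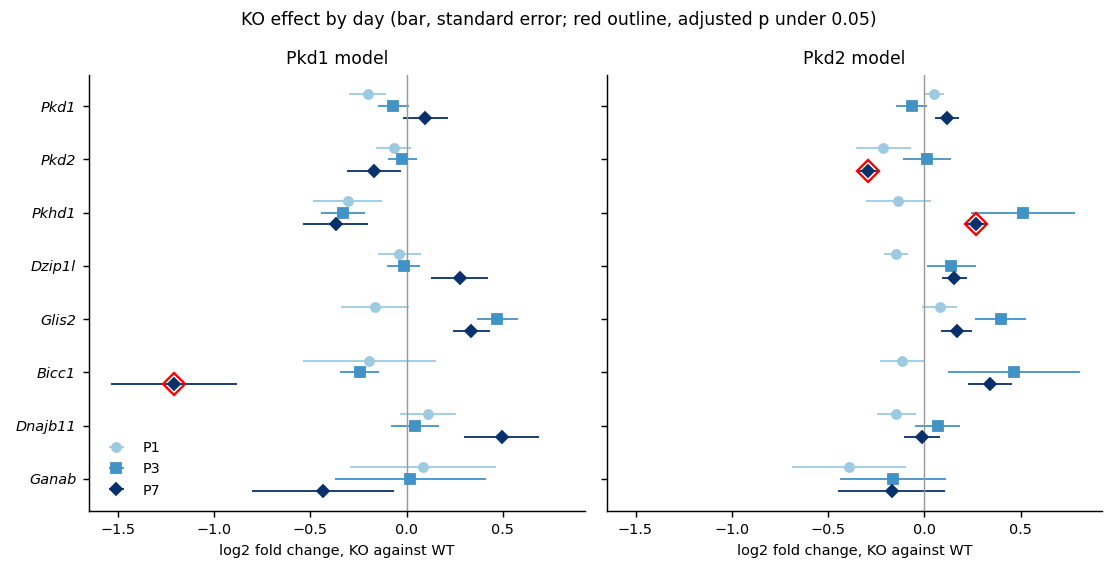
Log2 fold change of KO against WT (horizontal axis) for 8 genes at P1, P3 and P7, with bars of 1 standard error and a red outline where the edgeR adjusted p was under 0.05; Glis3 is left out for its low counts. Bicc1 lies at -1.21 in the Pkd1 model and at 0.34 in the Pkd2 model at P7, and Pkd2 and Pkhd1 are called at P7 in the Pkd2 model.

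Bicc1 gave the largest shift among the genes with more than a few counts. At P7 in the Pkd1 model it had 205, 317 and 121 CPM in WT and 89.6, 71.2 and 118 CPM in KO kidneys, so the WT group spread widely and WT replicate 3 lay just above the highest KO library. The log2 fold change was -1.21 ± 0.33, a level 0.433 times that of WT (edgeR adjusted p = 0.0452). Of 6 fits without a library, 1 kept the call, that without WT replicate 3 (-1.49, edgeR adjusted p = 0.00664), and the others gave -1.41 to -0.81 with edgeR adjusted p of 0.0585 to 0.160. With the Y-linked counts as a covariate over 18 libraries the value was -0.82 (edgeR adjusted p = 0.574). Only the P1 WT group of this model held libraries both with and without Y-linked transcripts. The covariate therefore rests on that group and cannot separate sex from genotype at P7. With replicate numbers as a block the value was -1.13 (edgeR adjusted p = 0.104). Corrected for GC content and length it was -0.83 (edgeR adjusted p = 0.0495).

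At P7 in the Pkd2 model Bicc1 lay the other way. WT kidneys had 258, 212 and 253 CPM and KO kidneys 308, 345 and 262 CPM, which did not overlap, and the log2 fold change of 0.34 ± 0.11 missed the threshold (edgeR adjusted p = 0.0837), while DESeq2 called it (adjusted p = 0.0304). The difference between the models in the KO effect was -1.54 ± 0.39 (edgeR adjusted p = 0.133). In that test 0% of 12343 transcripts were called by edgeR, with 2126 at an unadjusted p under 0.05, and DESeq2 called 406, among them 1 of the 8 members tested, Bicc1.

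The level of Bicc1 followed the length contrast of the libraries, and other members did so less closely. Within groups the Pearson correlation of log2 CPM with the contrast was 0.83 for Bicc1. It was 0.68 for Dzip1l, 0.61 for Pkd2, 0.58 for Pkhd1, 0.5 for Pkd1, 0.34 for Glis2 and -0.6 for Dnajb11. Bicc1 (5431 bases), Pkd1, Pkd2, Pkhd1 and Dzip1l (3981 bases) belong to the long transcripts of the contrast, and Dnajb11 (1927 bases) to the short ones. The signs of these correlations are thus in part set by the definition of the contrast. Whether other transcripts of these lengths followed it as closely was not tested. In 9 of 12 groups the library with the lowest Bicc1 level was also the one with the lowest length contrast. At P1 in the Pkd1 model it had 219, 206 and 95.9 CPM in WT and 174, 191 and 91.2 CPM in KO kidneys, and the third library of each had the lowest contrast of its group, -0.085 and -0.156. At P3 in the Pkd2 model it had 188, 64.2 and 152 CPM in WT kidneys, where replicate 2 had a contrast of -0.16, and 181, 193 and 184 CPM in KO kidneys. Single libraries with low Bicc1 thus occurred in WT as well as KO kidneys.

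**Figure D3:**
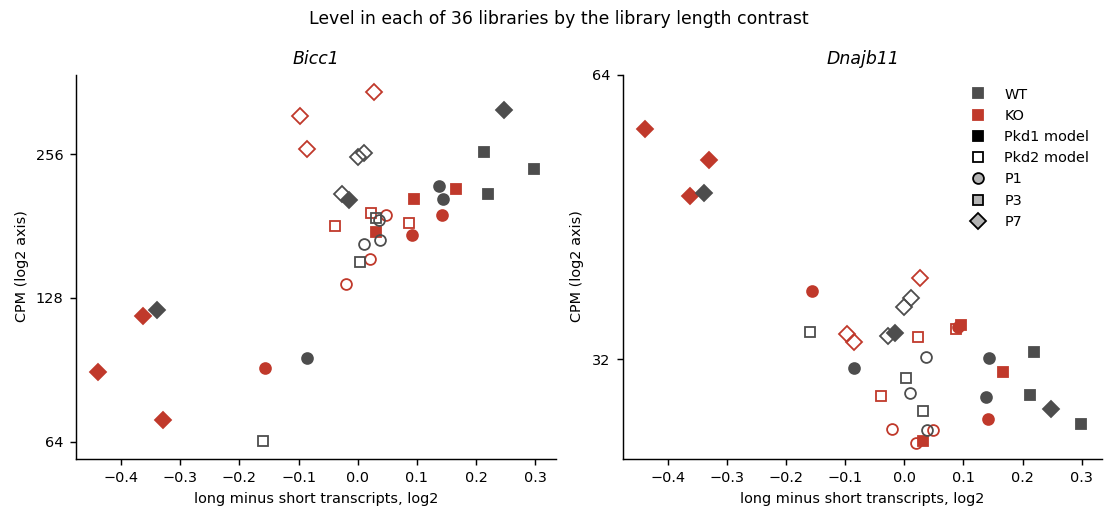
Level of Bicc1 and Dnajb11 (vertical axes, CPM on a log2 axis) against the library length contrast (horizontal axis, log2) in 36 libraries; colour gives genotype, fill gives model and shape gives day. The 3 P7 KO libraries and WT replicate 3 of the Pkd1 model lie at -0.439 to -0.33, with the 4 lowest contrasts, low Bicc1 and high Dnajb11.

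The fibrocystin gene Pkhd1 rose at P7 in KO kidneys of the Pkd2 model. It had 205, 217 and 208 CPM in WT and 251, 259 and 250 CPM in KO kidneys, with no overlap. The log2 fold change was 0.27 ± 0.05, or 20.5% more (edgeR adjusted p = 0.0137). The Pkd1 model had 172, 246 and 177 CPM in WT and 176, 152 and 132 CPM in KO kidneys, which overlapped, with a log2 fold change of -0.37 ± 0.17 (edgeR adjusted p = 0.167). Corrected for GC content and length the Pkd1 model value became 0.013, so no direction can be given. The difference between the models was -0.63 ± 0.19 (edgeR adjusted p = 0.161). The Pkd2 model call was kept by 4 of 6 fits without a library and was lost without WT replicate 1 (0.25, edgeR adjusted p = 0.0671) or KO replicate 2 (0.25, 0.0537), and in the fit of all 18 libraries (adjusted p = 0.450).

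The transition zone gene Dzip1l was not called at any day. At P7 in the Pkd2 model it had 105, 103 and 98.0 CPM in WT and 108, 121 and 111 CPM in KO kidneys, without overlap (log2 fold change 0.16 ± 0.06, edgeR adjusted p = 0.146). For the Pkd1 model the values were 94.8, 119 and 93.2 CPM in WT and 108, 142 and 121 CPM in KO kidneys (0.28 ± 0.15, adjusted p = 0.225). At P1 in the Pkd2 model it lay the other way without overlap, at 94.0, 93.3 and 86.8 CPM in WT and 81.7, 80.8 and 84.7 CPM in KO kidneys (-0.15 ± 0.06, edgeR adjusted p = 0.864).

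Among the transcription factors, Glis2 at P7 had 375, 378 and 388 CPM in WT and 474, 498 and 468 CPM in KO kidneys of the Pkd1 model. The groups did not overlap, with a log2 fold change of 0.34 ± 0.10, a level 1.26 times that of WT, and the edgeR adjusted p was 0.0530. It was called by DESeq2 (adjusted p = 0.00553) and after correction for GC content and length (edgeR adjusted p = 0.0238). The Pkd2 model had 482, 432 and 498 CPM in WT and 484, 543 and 560 CPM in KO kidneys, which overlapped (0.17 ± 0.08, edgeR adjusted p = 0.206).

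Glis3 had 12, 13 and 3 counts in WT and 1, 0 and 1 counts in KO kidneys of the Pkd1 model at P7. Summed over the libraries these were 28 and 2 counts, a KO to WT ratio of 0.0753 with a 95% interval of 0.0087 to 0.299 from counting error alone. The edgeR test called the difference (fitted log2 fold change -3.46 ± 0.95, adjusted p = 0.0469), with a fitted value that depends on the prior count, and called it in 1 of 6 fits without a library, that without WT replicate 3 (-3.86, adjusted p = 0.0164). Corrected for GC content and length it was not called (edgeR adjusted p = 0.0525), and DESeq2 gave it no adjusted p. At P1 the same model had 1, 2 and 2 counts in WT and 5, 10 and 4 counts in KO kidneys. At P3 it had 11, 7 and 11 counts in WT and 11, 6 and 5 counts in KO kidneys. The P7 counts in the Pkd2 model were 1, 3 and 2 in WT and 8, 1 and 11 in KO kidneys, so the genotypes lay the other way there, with overlap. These sum to 6 and 20 counts, a KO to WT ratio of 3.36 with a 95% interval of 1.3 to 10.2 from counting error alone.

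The endoplasmic reticulum genes were not called. Dnajb11 at P7 had 34.1, 28.4 and 48.0 CPM in WT and 56.0, 52.0 and 47.6 CPM in KO kidneys of the Pkd1 model (log2 fold change 0.49 ± 0.19, edgeR adjusted p = 0.117). WT replicate 3 again stood with the KO libraries, and without it the value was 0.73 (edgeR adjusted p = 0.0118). Dnajb11 in the Pkd2 model had 37.2, 33.9 and 36.4 CPM in WT and 34.0, 39.0 and 33.4 CPM in KO kidneys (-0.01 ± 0.09). Ganab had 2.56, 2.92 and 3.28 CPM in WT and 1.56, 3.06 and 1.86 CPM in KO kidneys of the Pkd1 model, and 1.90, 2.90 and 2.11 CPM in WT and 1.88, 2.15 and 2.13 CPM in KO kidneys of the Pkd2 model. Both comparisons overlapped, and 20 to 45 counts per library could not show a small change.

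Whether a KO effect had changed between P1 and P7 was tested directly. In the Pkd1 model 7.75% of transcripts were called and 1 of 9 members, Glis3, whose effect shifted by -4.87 ± 1.06 (edgeR adjusted p = 0.0137) at the low counts given above. DESeq2 gave Glis3 no adjusted p here and called no other member. In this model Y-linked transcripts went from 0 of 3 KO libraries at P1 to 3 of 3 at P7. In WT kidneys they went from 2 of 3 to 0 of 3. Sex and the change of the KO effect therefore cannot be told apart. For the Pkd2 model 1.3% of transcripts and 0 of 8 members were called by edgeR. An unadjusted p under 0.05 was found for 1 member, beside 1954 of 12633 transcripts, and DESeq2 called no member. For Bicc1 the shift was -1.01 ± 0.47 (edgeR adjusted p = 0.184) in the Pkd1 model, against 0.46 ± 0.35 (0.569) in the other.

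The postnatal course of the genes was read in WT kidneys. Pkhd1 and Glis2 rose from P1 to P7 in both models, Pkd2 rose in the Pkd2 model, and no member was called lower. From P1 to P7 the calls covered 17.9% of transcripts in WT kidneys of the Pkd1 model, where 2 of 9 members were called, and 19.2% in the Pkd2 model, where 3 of 8 were called. The 2 and 3 member calls were all higher at P7, too few to give the set a direction. Over all transcripts the calls were near balance, 1110 higher and 1136 lower in the Pkd1 model and 1140 and 1287 in the Pkd2 model. Between P3 and P7 the calls were 18.5% and 3 of 8 members in the Pkd2 model. They were 7.66% and 0 of 9 members in the Pkd1 model. There 1 member had an unadjusted p under 0.05 by edgeR, beside 3302 of 12527 transcripts, and 0 members were called by DESeq2. In WT kidneys of the Pkd1 model Y-linked transcripts went from 3 of 3 libraries at P3 to 0 of 3 at P7. Age and sex therefore cannot be told apart in that comparison. Between P1 and P3 the calls were 0.12% and 0.0317%, with 0 members called in each model by edgeR. At an unadjusted p under 0.05 there were 2 and 0 members, beside 1506 of 12527 and 1890 of 12633 transcripts. DESeq2 called 1 and 0 members, and its calls over all transcripts are not given here.

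Pkhd1 had the largest change among the genes called. Glis3, not called, went from 1, 2 and 2 counts at P1 to 12, 13 and 3 counts at P7 in WT kidneys of the Pkd1 model. Its counts lay the other way in WT kidneys of the Pkd2 model, where it was not tested. They were 5, 7 and 1 at P1 and 1, 3 and 2 at P7. Pkhd1 in WT kidneys of the Pkd1 model had 94.6, 112 and 71.6 CPM at P1, 132, 180 and 176 CPM at P3 and 172, 246 and 177 CPM at P7. From P1 to P7 this was 2.14-fold, a log2 fold change of 1.10 ± 0.20 (edgeR adjusted p = 0.00448). WT kidneys of the Pkd2 model had 114, 80.3 and 70.9 CPM at P1, 139, 59.1 and 107 CPM at P3 and 205, 217 and 208 CPM at P7, or 2.37-fold (1.25 ± 0.28, edgeR adjusted p = 0.0148). Neither the P1 nor, in the Pkd2 model, the P3 range reached the P7 range. With Y-linked counts as a covariate the value was 0.83 in the Pkd1 model (edgeR adjusted p = 0.148), against 1.17 in the other (0.0299). In WT kidneys of the Pkd1 model only the P1 group held libraries both with and without Y-linked transcripts. The value of 0.83 thus leans on P1 WT replicate 2, the 1 library of that group without them, and is not a sex-corrected course. Without P1 WT replicate 2 (1.18, edgeR adjusted p = 0.0679) or replicate 3 (1.11, 0.0701) the call in the Pkd2 model was lost.

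Glis2 had 304, 282 and 180 CPM at P1, 228, 286 and 301 CPM at P3 and 375, 378 and 388 CPM at P7 in WT kidneys of the Pkd1 model. The log2 fold change from P1 to P7 was 0.58 ± 0.18 (edgeR adjusted p = 0.0474), and it was called in 1 of 6 fits without a library. WT kidneys of the Pkd2 model had 309, 258 and 254 CPM at P1, 316, 235 and 274 CPM at P3 and 482, 432 and 498 CPM at P7, a log2 fold change of 0.78 ± 0.12 from P1 (edgeR adjusted p = 0.0034) and 0.77 ± 0.12 from P3 (0.0038). In both models the P7 libraries lay above all earlier ones.

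Pkd2 in WT kidneys of the Pkd2 model had 260, 253 and 239 CPM at P1, 280, 202 and 271 CPM at P3 and 334, 335 and 318 CPM at P7. The log2 fold change was 0.39 ± 0.11 from P1 to P7 (edgeR adjusted p = 0.0392), and none of 6 fits without a library kept it. WT libraries of the Pkd1 model ran from 220 to 259 CPM at P1 and from 244 to 341 CPM at P7 (0.25 ± 0.13, edgeR adjusted p = 0.209). KO kidneys of the Pkd2 model at P7, with 261 to 276 CPM, lay within the WT range of P3.

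Pkd1 was the steadiest of the 9 genes. Over all 36 libraries its highest level was 1.71 times its lowest, 178 to 304 CPM, against 5.38 times for Bicc1 and 4.38 times for Pkhd1. Its log2 change in WT kidneys from P1 to P7 was 0.10 ± 0.10 in the Pkd1 model, against 0.03 ± 0.06 in the other. Dzip1l (0.21 ± 0.13 and 0.15 ± 0.11), Dnajb11 (0.25 ± 0.18 and 0.28 ± 0.11) and Bicc1 (0.30 ± 0.35 and 0.47 ± 0.30) had values above 0 in both models without a call.

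**Figure D4:**
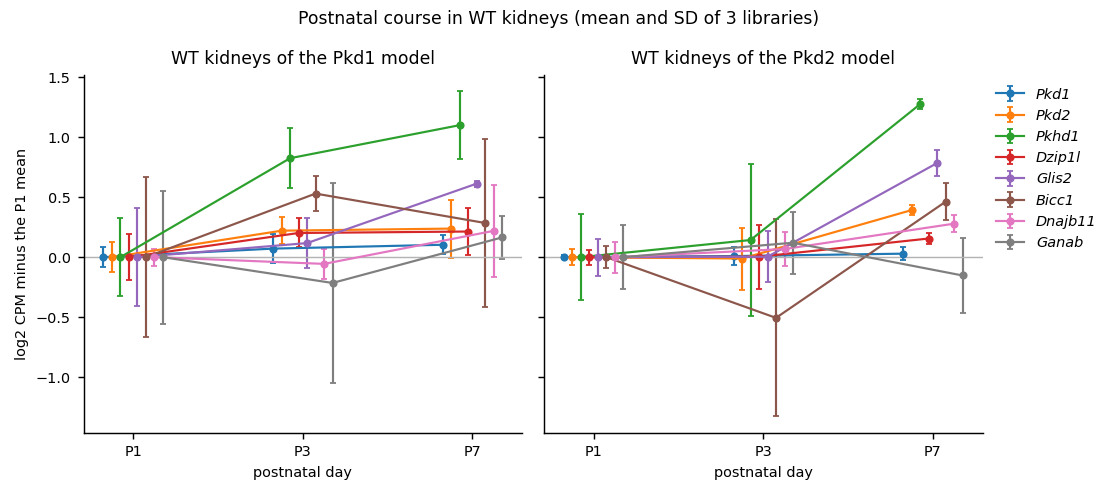
Level in WT kidneys as log2 CPM minus the P1 mean (vertical axis) by postnatal day (horizontal axis) for 8 genes, as mean and SD of 3 libraries; Glis3 is left out for its low counts. Pkhd1 and Glis2 reach the highest values at P7, with fitted changes of 1.10 and 0.58 on the left and 1.25 and 0.78 on the right.

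The transcripts with the most similar pattern were sought by Pearson correlation of log2 CPM over the 36 libraries, which share their groups and library composition, and the coefficients are given as a description of likeness. For Bicc1 these were Wwc2 (0.969), Erbb3 (0.924) and Cdcp1 (0.91). For Pkhd1 they were Elovl7 (0.929), Sema5a (0.924) and Wwc1 (0.913), and for Glis2 Aif1l (0.938), Phldb1 (0.917) and Dclk3 (0.913). Dnajb11 was nearest to Stx4a (0.89), Pet100 (0.883) and Arpc3 (0.881), and Dzip1l to Bcl7a (0.846), Inava (0.833) and Irf2bpl (0.794). Pkd2 was nearest to Mindy2 (0.809), P3h2 (0.771) and Car5b (0.764), and Pkd1 to Clcn7 (0.794), Taok2 (0.768) and Ehbp1l1 (0.765). Ganab and Glis3 had too few counts to be matched.

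Related disease genes were read from lists at P7. Of 12 genes for protein folding and glycosylation in the endoplasmic reticulum, 8 were tested. For the Pkd1 model 2 of 8 rose and 0 fell, and for the Pkd2 model 4 of 8 rose and 0 fell, against 13.7% and 13.9% of all transcripts called. In each model 6 of the 8 values lay above 0 and 2 below, with list medians of 0.11 and 0.18 on the log2 scale beside -0.006 and 0.002 over all transcripts. Alg8, a glucosyltransferase mutated in polycystic liver disease, went from 21.6 to 25.7 CPM in WT to 32.6 to 33.5 CPM in KO kidneys of the Pkd1 model (log2 fold change 0.50 ± 0.14, edgeR adjusted p = 0.0467) and from 20.2 to 22.8 to 26.0 to 31.2 CPM in the Pkd2 model (0.45 ± 0.11, adjusted p = 0.0287). Sec61a1, the channel subunit of the protein translocon, rose in the Pkd2 model (0.21 ± 0.05, edgeR adjusted p = 0.0364) and had 0.12 ± 0.10 in the Pkd1 model. The remaining calls, named after their values were seen, were Sec61b, another translocon subunit, in both models (0.71 ± 0.18 and 0.41 ± 0.11, edgeR adjusted p = 0.0404 and 0.0371) and Alg5, a glucosyltransferase, in the Pkd2 model (0.31 ± 0.08, 0.0371). Ganab and Dnajb11 themselves were not called in either model.

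None of the 12 nephronophthisis genes tested, of 16 listed, was called in either model, where 13.7% and 13.9% of all transcripts were, and the medians were 0.02 and -0.04. Of 8 genes of intraflagellar transport and cilia 7 were tested, and only Tulp3, an adaptor for ciliary membrane proteins, was called, in the Pkd2 model, from 84.2 to 92.1 CPM in WT to 103 to 105 CPM in KO kidneys (0.24 ± 0.06, edgeR adjusted p = 0.0336; 0.24 ± 0.13 in the Pkd1 model, adjusted p = 0.235). The 2 tested tumour suppressors, Vhl and Fh1, the 2 tested polycystin relatives, Pkd2l2 and Pkdrej, and the fibrocystin relative Pkhd1l1 were not called.

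**Figure D5:**
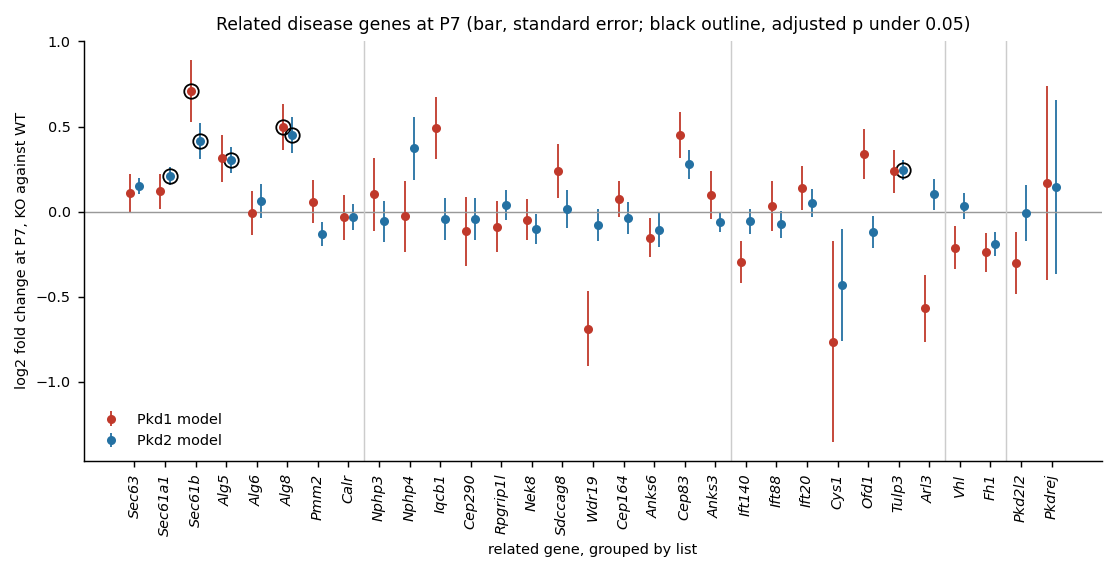
Log2 fold change of KO against WT at P7 (vertical axis) for the related genes tested in both models, grouped by list, with bars of 1 standard error and a black outline where the edgeR adjusted p was under 0.05; Pkhd1l1 is left out for its wide error. The outlined genes are Sec61a1, Sec61b, Alg5 and Alg8 above 0, and Tulp3 at 0.24 in the Pkd2 model.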

How the data were processed

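Total RNA of whole kidneys was sequenced, and the authors deposited one table of read counts per RefSeq transcript for 36 libraries. The submitters' processing notes name CASAVA 1.8.2, TopHat2 2.1.0, HTSeq and mm10. The study's methods state that HTSeq was run at its default settings on RefSeq annotation. The deposited counts are not normalized. Of 29996 transcripts 10865 had 0 counts in every library. The 9 genes, the lists of related genes and the tests were chosen with earlier results of these data known.

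A transcript entered a model's tests when 3 or more of that model's 18 libraries had 10 counts or above, which held for 12527 transcripts for Pkd1 and 12633 for Pkd2. Normalized CPM used TMM factors. KO and WT were compared within each day on 6 libraries, the WT course on 9, the change of the KO effect on 18 and the models at P7 on 12, with the quasi-likelihood test of edgeR 4.0.16 in R 4.3.3 and Benjamini-Hochberg adjustment at 0.05. DESeq2 1.42.0 was an alternative, as were no filter, RLE factors, GC and length offsets, summed transcripts, a 2-fold minimum, a replicate block, all 18 libraries in one fit with and without Y-linked counts, and leaving out each library. The tests were checked on simulated counts. Named were all 9 genes, per list the 2 genes with the smallest adjusted p in each direction among those called at P7 in either model, and the 3 nearest transcripts of each gene. Same-numbered KO and WT libraries deviated together in the Pkd1 model at P1 (correlations 0.42, 0.30 and 0.62), so the numbers were taken to pair the samples there and nowhere else (lowest correlation of the other comparisons -0.23 to -0.03). Nothing in the labels says that the libraries came from separate litters, and the p-values measure the spread between these samples. The interval for Glis3 covers counting error only. The 36 libraries of 12 groups all entered the comparisons. Results for 1 list of related genes and for some motif searches are not reported here.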

Additional observations from a re-analysis of the deposited data

Results flagged for a closer look

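The KO effect on Glis3 in the Pkd1 model differed between P7 and P1 by -4.87 on the log2 scale (edgeR interaction test, adjusted p = 0.0137, 3 libraries a group), with KO counts above WT counts at P1 and below them at P7. The counts behind it were 0 to 13 per library. The share of libraries with Y-linked transcripts also changed in opposite directions in KO and WT kidneys between these days, so sex cannot be told apart from it.

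The KO effect on Bicc1 at P7 differed between the Pkd1 and Pkd2 models by -1.54 on the log2 scale, with the KO libraries below all WT libraries in the first model and above them in the second. The edgeR test of the difference gave an adjusted p of 0.133, so it did not pass the threshold. The length contrast of the libraries, which Bicc1 followed, was -0.439 to -0.33 in the P7 KO kidneys of the Pkd1 model and -0.097 to 0.027 in those of the Pkd2 model, and its part in the difference was not tested beyond the correction given above.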

How the results depend on the processing

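The count of members called was recomputed under each alternative. The share of all transcripts called in the same fit is not set beside it. A change in a count therefore cannot be read as particular to the members. By DESeq2 it was 1 at P3 in the Pkd1 model (main 0), 0 for the change of the Pkd1 KO effect from P1 to P7 (main 1), 1 for the difference between the models (main 0) and 1 for WT P3 against P1 in the Pkd1 model (main 0). For KO at P7 in the Pkd1 model (main 2) the replicate block gave 0 and all 18 libraries with Y-linked counts gave 0; no other KO count changed by more than 1.5 times with the block. For KO at P7 in the Pkd2 model (main 2) a 2-fold minimum, all 18 libraries, and all 18 with Y-linked counts gave 0 each. For WT P7 against P1 in the Pkd1 model (main 2) the 2-fold minimum gave 1, the replicate block 1 and Y-linked counts 0; for P7 against P3 (main 0) the GC and length correction gave 1. In the Pkd2 model the 2-fold minimum gave 1 for P7 against P1 and 1 for P7 against P3 (main 3 each). Leaving out one library gave 0 to 4 for KO at P7 in the Pkd1 model, with 4 without WT replicate 3 and 0 without any of the others; 0 to 2 in the Pkd2 model, with 0 without WT replicate 1 or KO replicate 2; 1 to 2 for the change of the Pkd1 KO effect; 0 to 3 for the difference between the models, with 3 without WT replicate 3 of the Pkd1 model and 0 otherwise; 1 to 2 for WT P7 against P1 in the Pkd1 model, with 2 without P1 replicate 1 or P7 replicate 3; 1 to 2 in the Pkd2 model; and 1 to 4 for P7 against P3 there, with 4 without P3 replicate 1 or 2. Of single genes, Pkd2 in KO kidneys of the Pkd1 model at P7 turned to 0.16 with the GC and length correction, Pkhd1 to 0.013 with it and to 0.060 with Y-linked counts, and Dnajb11 in the Pkd2 model to 0.014 with Y-linked counts. Without one library Dnajb11 in the Pkd2 model ran from -0.086 to 0.038, Ganab from -0.29 to 0.034, and in WT kidneys of the Pkd1 model Bicc1 ran from -0.091 to 0.59 and Ganab from -0.095 to 0.48. The cause of these changes was not tested. In the Pkd1 model the Y-linked covariate rested on the P1 WT kidneys, the only group both with and without Y-linked transcripts. Low counts limit what can be shown for Glis3 and Ganab.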
